A study of Homo sapiens and Mus musculus with 5 samples.

Results

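Off-centre fragment pairs are the reporter fragments in which the same SNP and allele were cloned at 2 mirrored positions, with 150 bases in front of the SNP and 50 behind it, and with 50 bases in front and 150 behind. A SNP was taken where a line's table held both rows with input counts above 0 for the same allele number. The rule itself uses no RNA value. The lines share their input yet their tables hold different rows, and whether RNA values decided which rows a table holds was not tested. It gave 285 of the 347 SNPs of the series and 418 pairs of a SNP and an allele, of which 324 pairs of 236 SNPs were present in the tables of all 4 lines. The 2 fragments of a pair share only the middle 100 bases around the SNP, so each fragment has 100 bases of outer flank that the other lacks.

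The series is a massively parallel reporter assay (STARR-seq) of common variants linked to schizophrenia, with plasmid fragments carrying either allele of a SNP. RNA made from the plasmids was counted in Neuro-2a (mouse neuroblastoma), SH-SY5Y (human neuroblastoma), HEK-293T (derived from human embryonic kidney) and PC-12 (rat pheochromocytoma, although the organism given for it is mouse). PC-12 had RNA replicates 1 and 3, with replicate 2 not analysed here, and the other lines had 3 RNA libraries each. Every line was set against the same 3 libraries of plasmid input. Per the labels, plasmids were transfected in triplicate, and no other treatment and no separate cultures are named. The p-values therefore measure only the spread between these libraries.

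In STARR-seq a fragment is placed inside the transcribed part of a reporter, so a fragment that acts as an enhancer raises the amount of its own sequence in the RNA. An enhancer holds clusters of binding sites for transcription factors, and moving the window along the genome changes which sites are inside it while the SNP stays the same. The plasmid carries no native chromatin, so the assay reads what the cloned bases can do in a cell and not what the locus does on its chromosome. Cell lines are also grown without the cell contacts of brain tissue, and the rodent lines read human fragments with their own factors.

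Neuro-2a held 342 pairs of 250 SNPs, of 345 SNPs in its table. SH-SY5Y held 388 pairs of 267 SNPs (of 347), HEK-293T 379 pairs of 261 (of 346) and PC-12 410 pairs of 281 (of 347). All of these pairs passed the minimum mean count of 10 in each placement. Both alleles were present in both placements for 92 SNPs in Neuro-2a, 121 for SH-SY5Y, 118 for HEK-293T and 129 for PC-12. The tables give 269 of these SNPs as a chromosome and position and 16 as an rs number, and 178 of the 269 positions fall inside a protein-coding gene of RefSeq's GRCh38.p14 annotation. No source used here names the build, so each gene name holds only for positions on that assembly. Pairs of 1 SNP share their middle bases, and 4 member SNPs lie within 200 bases of another member, so pairs are not replicates of each other.

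RNA libraries held 5875437 to 10201521 counts and input libraries 6380682 to 8421333. The fragment with 150 bases in front was the less abundant in the plasmid pool: its median input mean was 3644 counts over the Neuro-2a pairs, 3348 over those of SH-SY5Y, 3344 over those of HEK-293T and 3148 over those of PC-12, against 4822, 4291, 4472 and 4163 for the fragment with 50 in front. Its input was the higher of the pair in 137 of 342, 165 of 388, 154 of 379 and 169 of 410 pairs in the same order of lines.

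Some RNA libraries stood apart. The placement difference, which is the log2 fold of RNA over input with 150 bases in front relative to that with 50 in front, was compared between RNA replicates set against different input libraries, over pairs with no count of 0. RNA replicates 2 and 3 gave Pearson's r of 0.68 in Neuro-2a (n = 280 pairs), 0.83 for SH-SY5Y (n = 331) and 0.57 for HEK-293T (n = 268). RNA replicate 1 gave 0.28 and 0.25 with the other replicates in Neuro-2a, 0.43 and 0.37 for SH-SY5Y, 0.29 and 0.49 for HEK-293T, and 0.39 with replicate 3 for PC-12 (n = 271 to 360). Counts of 0 were also uneven. HEK-293T RNA replicate 2 had 55 of them with 150 bases in front and 56 with 50 in front, PC-12 RNA replicate 3 had 30 and 43, and each of the other RNA libraries had 3 to 24 per placement. Counts of calls are given with these libraries and without them, while medians, shares and correlations of fitted values use all libraries.

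The activity of a fragment compares its RNA with its plasmid input on the log2 scale, scaled so that the middle of each library sits near 0. Fragments called above or below input were few in these pairs. A call in 1 placement was mostly not accompanied by a call in the other, which with so few calls only describes the calls. Whether the overlap differs from that of unrelated fragments was not tested. In Neuro-2a, edgeR's quasi-likelihood test called 12 fragments with 150 bases in front above input and 2 below, against 25 and 8 with 50 in front, where 4.08% of all 1471 fragments of the line were called above input and 1.7% below. SH-SY5Y gave 25 above and 18 below with 150 in front, against 29 and 25 with 50 in front (7.43% and 5.51% of all 1562 fragments). HEK-293T gave 6 and 6 with 150 in front, against 4 and 4 (1.35% and 1.02% of 1561). PC-12 gave 25 and 14 with 150 in front, against 24 and 25 (5.64% and 4.77% of 1614). Both placements of a pair were called above input in 4 pairs in each of Neuro-2a, SH-SY5Y and PC-12 and in 0 pairs in HEK-293T, and both below input in 1 pair in each line but PC-12, which had 0. Without RNA replicate 1 the calls over both placements numbered 304 in Neuro-2a, 433 for SH-SY5Y and 247 for HEK-293T, against 47, 97 and 20 with it. PC-12 had 745 without replicate 1 and 646 without replicate 3, against 88 with both, and Neuro-2a without RNA replicate 3 and HEK-293T without RNA replicate 2 had 83 and 80. Without any 1 input library they numbered 1 in SH-SY5Y and 0 in each other line.

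Across pairs the activities of the 2 placements showed little relation. Pearson's r between the fitted activities was 0.13 in Neuro-2a (n = 342), 0.12 for SH-SY5Y (n = 388), 0.01 for HEK-293T (n = 379) and 0.06 for PC-12 (n = 410), as a description of fragments counted in the same libraries. The sign of the activity was the same in both placements in 54.7%, 57.0%, 53.6% and 53.2% of pairs. Pairs that share 150 of their bases gave higher r of fitted activities in every line, over partly different sets of pairs. The gain was only slight in Neuro-2a and, for 150 in front with the central fragment, in SH-SY5Y. The fragment with 150 in front and the central fragment (100 bases on either side) gave r of 0.14, 0.13, 0.20 and 0.19. The fragment with 50 in front and the central fragment gave 0.14, 0.27, 0.10 and 0.27. Within single RNA libraries, leaving out counts of 0, Spearman's rho between the off-centre placements was 0.15, 0.32, 0.26 and 0.23 in RNA replicate 1 of the 4 lines, 0.17, 0.05 and 0.02 in replicate 2 of the 3 lines that have it, and 0.10, 0.03, 0.00 and -0.02 in replicate 3. With the central fragment, rho in RNA replicate 1 was 0.28, 0.32, 0.37 and 0.45 for 150 in front and 0.21, 0.33, 0.42 and 0.46 for 50 in front. In replicates 2 and 3 it was 0.04 to 0.22 for 150 in front and 0.10 to 0.20 for 50 in front. The higher values did not hold in every library: in Neuro-2a replicate 2, rho for 50 in front with the central fragment was 0.10, against 0.17 between the off-centre placements. In pairs with a central fragment, its activity lay between those of the off-centre placements in 36.3%, 34.8%, 36.6% and 37.5% of pairs. Some unrelated fragments would also give this order, and their share was not computed.

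The placement difference was wide and had no common direction. Its median over the pairs was 0.06 in Neuro-2a, 0.07 for SH-SY5Y, -0.03 for HEK-293T and 0.11 for PC-12. Its median absolute size was 1.07, 0.99, 1.10 and 1.14, against 1.03, 0.95, 1.10 and 1.00 over all 3 kinds of pair (off-centre with off-centre, and each off-centre with the central fragment). A difference over 2-fold was fitted in 53.8%, 49.5%, 52.8% and 53.4% of off-centre pairs. The median SD over the RNA libraries of a line was 1.32, 1.09, 1.34 and 1.12, so the median absolute difference was below this spread in every line but PC-12, where it was close to it.

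A placement difference past an adjusted p of 0.05 in edgeR's quasi-likelihood test of the interaction of placement with RNA was found in 44 line-and-pair combinations, over 36 pairs of 33 SNPs. In Neuro-2a 2 pairs were more active with 150 bases in front and 4 with 50 in front, of 342 (1.22% of the line's 1063 pairs of the 3 kinds were called). In SH-SY5Y 7 were more active with 150 in front and 5 with 50 in front, of 388 (2.6% of 1193). In HEK-293T these were 2 and 1 of 379 (0.337% of 1188), and in PC-12 14 and 9 of 410 (4.25% of 1272). All called pairs had the same sign in every RNA library of the line, and none had an RNA count of 0. The more active placement of a called pair was the one with less input in 4 of 6, 7 of 12, 2 of 3 and 16 of 23 pairs, against 53.8%, 52.6%, 47.2% and 50.7% of all tested pairs.

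The number of calls depended on how the spread was estimated, and the edgeR test takes 1 spread for RNA and input libraries. The median SD of the log2 ratio of the placements was 1.32, 1.09, 1.34 and 1.12 over RNA libraries, against 0.061, 0.065, 0.062 and 0.067 over input libraries. With the spread taken from the RNA libraries alone (limma), 0 pairs were called in each line and 29, 64, 27 and 19 had an unadjusted p under 0.05. Leaving out any 1 input library also left 0 edgeR calls in each line, with 18 to 52 pairs at an unadjusted p under 0.05. Leaving out RNA replicate 1 gave 99 calls in Neuro-2a, 184 for SH-SY5Y and 90 for HEK-293T, and every pair called with all libraries was among them. HEK-293T without RNA replicate 2 had 33 calls, and Neuro-2a had 2 without RNA replicate 2. SH-SY5Y had 19 without RNA replicate 3. With a single RNA library PC-12 had 353 calls (replicate 3 alone) and 301 (replicate 1 alone), where that library is assumed to vary like the input.

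PPP2R3A encodes a regulatory subunit of a serine/threonine protein phosphatase, and a SNP in it (chromosome 3, position 136050568) gave opposite calls in its 2 placements. In SH-SY5Y, allele 2 with 150 bases in front had 34531, 25698 and 38654 RNA counts, against 4547, 4094 and 5073 input counts. With 50 bases in front it had 4691, 1527 and 2198 RNA counts, against 14698, 11614 and 15181 input counts. Every RNA library was above every input library in the first placement and below every input library in the second. The activity was 2.94 ± 0.25 with 150 in front and -2.34 ± 0.26 with 50 in front (SE, n = 3 RNA libraries), a difference of 5.29 ± 0.40 (edgeR quasi-likelihood test, Benjamini-Hochberg adjusted p = 0.00718).

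The central fragment of the same PPP2R3A allele had an activity of 3.34 in SH-SY5Y, close to that with 150 bases in front. In PC-12 the placement difference of allele 2 was 3.90 ± 0.25 (edgeR adjusted p = 0.014), and in HEK-293T and Neuro-2a it was 4.59 ± 0.68 and 2.72 ± 0.78 (edgeR adjusted p = 0.0785 and 0.237). Allele 1 differed by 3.05 ± 0.17 for PC-12 (edgeR adjusted p = 0.0125), 3.41 ± 0.32 for HEK-293T (edgeR adjusted p = 0.0299), 3.42 ± 0.70 for SH-SY5Y (edgeR adjusted p = 0.0746) and 1.39 ± 0.22 in Neuro-2a (edgeR adjusted p = 0.073). In PC-12 both alleles were called above input with 150 in front, allele 2 at 2.60 and allele 1 at 1.86, and below input with 50 in front, at -1.31 and -1.21. The 4 lines share the input libraries, so these values are not independent of each other. The HEK-293T call of allele 1 was lost without RNA replicate 3 (edgeR adjusted p = 0.0536).

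MSRA encodes a methionine sulfoxide reductase that repairs oxidised methionine, and its SNP (chromosome 8, position 10388815, allele 2) ran the other way. In SH-SY5Y it had 3007, 1809 and 1869 RNA counts with 150 bases in front, against 7633, 6267 and 7937 input counts. With 50 in front it had 25342, 22069 and 25296 RNA counts, against 9496, 7984 and 10155 input counts. RNA and input did not overlap in either placement. The activity was -1.68 ± 0.15 with 150 in front and 1.49 ± 0.19 with 50 in front, a difference of -3.14 ± 0.24 (SE, n = 3 RNA libraries; edgeR adjusted p = 0.00718).

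In HEK-293T the same MSRA allele was called below input with 150 bases in front, at -1.74, and above input with 50 in front, at 1.19. Its placement difference there was -2.94 ± 0.36 (edgeR adjusted p = 0.0564). In Neuro-2a and PC-12 the difference was -3.0 ± 0.65 and -4.50 ± 0.98 (edgeR adjusted p = 0.122 and 0.113). The central fragment of this allele had an activity of 1.43 in SH-SY5Y, near that with 50 in front.

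The pair called in the most lines lies in the gamma protocadherin cluster (chromosome 5, position 141474289, allele 1), whose genes encode cell adhesion proteins of neurons. With 150 bases in front it had 1937, 1864 and 4460 RNA counts in Neuro-2a, 2290, 3586 and 4187 for SH-SY5Y, and 3848 and 2307 for PC-12, against 74, 57 and 74 input counts. With 50 in front it had 6908, 4758 and 4434 RNA counts in Neuro-2a, 8604, 2221 and 3093 for SH-SY5Y, and 9028 and 4966 for PC-12, against 11339, 9937 and 12339 input counts. RNA counts stood far above the low input of the first placement in all 3 lines and were below every input count in the second, where the activity was -0.62 in Neuro-2a, -1.36 for SH-SY5Y and -0.53 for PC-12 and was not called.

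The placement difference of this protocadherin pair was 6.29 ± 0.61 in Neuro-2a, 7.14 ± 0.83 for SH-SY5Y and 6.19 ± 0.20 for PC-12 (SE, n = 3, 3 and 2 RNA libraries; edgeR adjusted p = 0.0322, 0.0331 and 0.00222). In HEK-293T the fragment with 150 in front had 99, 0 and 1331 RNA counts, and the difference was 1.22 ± 3.20 (edgeR adjusted p = 0.867). Without RNA replicate 3, which held the highest of these, the HEK-293T value was -1.61. The Neuro-2a call was lost without RNA replicate 2 (edgeR adjusted p = 0.0875). The central fragment, with input counts of 7937, 6558 and 8538, had activities of 0.13 in Neuro-2a, 0.46 for SH-SY5Y, 0.56 for HEK-293T and 0.06 for PC-12.

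PLCL1, a phospholipase C-like protein that binds inositol phosphates, holds a SNP of chromosome 2 (position 198058744). Its allele 1 had 876, 1240 and 3456 RNA counts with 150 bases in front in HEK-293T, against 855, 680 and 914 in the input. With 50 in front it had 140, 65 and 313 RNA counts, against 7876, 6721 and 8357 in the input. RNA overlapped input with 150 in front and was far below it with 50 in front, with activities of 1.38 ± 0.62 and -5.25 ± 0.71. The placement difference was 6.69 ± 0.65 for HEK-293T and 5.0 ± 0.77 for SH-SY5Y (edgeR adjusted p = 0.0299 and 0.0457), and 3.48 ± 1.01 in Neuro-2a and 4.75 ± 1.18 for PC-12 (edgeR adjusted p = 0.237 and 0.147). Without RNA replicate 3 the HEK-293T call was lost (edgeR adjusted p = 0.0714), and the SH-SY5Y call was lost without RNA replicate 2 or 3 (edgeR adjusted p = 0.0639 and 0.064).

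STAG1, a cohesin subunit, held a smaller difference (chromosome 3, position 136435986, allele 1). With 150 in front it had 17375, 19816 and 17476 RNA counts in Neuro-2a, against 10314, 8132 and 10596 in the input, and with 50 in front 3388, 3240 and 2441, against 5495, 4863 and 5993. The difference was 1.78 ± 0.22 in Neuro-2a and 1.21 ± 0.16 in SH-SY5Y (edgeR adjusted p = 0.0384 and 0.0356), and the Neuro-2a call was lost without RNA replicate 2 (edgeR adjusted p = 0.0875). In PC-12 its fragment with 150 in front had 21004 and 434 RNA counts in replicates 1 and 3, and the difference was -0.89 ± 2.47 (edgeR adjusted p = 0.816).

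Among pairs more active with 50 bases in front, MAU2, which helps load cohesin onto DNA (chromosome 19, position 19329257, allele 2), was called in both HEK-293T and PC-12. With 150 in front it had 23, 66 and 65 RNA counts in HEK-293T and 122 and 196 in PC-12, against 2798, 2353 and 3021 in the input. With 50 in front it had 10594, 22850 and 16233 in HEK-293T and 10970 and 18087 in PC-12, against 7869, 6871 and 8878 in the input. RNA was far below input in the first placement and above it in the second. The difference was -6.88 ± 0.34 in HEK-293T and -4.98 ± 0.15 in PC-12 (SE, n = 3 and 2 RNA libraries; edgeR adjusted p = 0.00323 and 0.00222).

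In Neuro-2a the same MAU2 fragment with 150 in front had 955, 1648 and 2986 RNA counts, and the difference was -1.53 ± 0.31 (edgeR adjusted p = 0.113). The pair did not meet the rule in SH-SY5Y. A second MAU2 SNP (position 19347099, allele 2) differed by -2.41 ± 0.22 in PC-12 (edgeR adjusted p = 0.033). It was not called in the other lines, at -1.15 ± 0.35 in Neuro-2a, -0.91 ± 0.36 for SH-SY5Y and 0.16 ± 1.20 for HEK-293T (edgeR adjusted p = 0.257, 0.214 and 0.948). Allele 1 of the SNP in MANBA, a lysosomal beta-mannosidase gene (chromosome 4, position 102730805), had 64 and 21 RNA counts with 150 in front in PC-12, against an input mean of 10347, and 4655 and 10543 with 50 in front, against an input mean of 5564. Its difference of -8.44 ± 1.05 was the largest of all called (edgeR adjusted p = 0.0452). In HEK-293T the MANBA fragment with 50 in front had 4054, 67 and 0 RNA counts, and the difference there was -4.01 ± 1.95 (edgeR adjusted p = 0.459).

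ZNF823, a zinc-finger gene, was the single SNP with both alleles called in Neuro-2a (chromosome 19, position 11738921). Allele 1 had 9674, 17196 and 19297 RNA counts with 150 in front, against 12117, 10495 and 13002 in the input, and 16490, 47738 and 44611 with 50 in front, against 7650, 6086 and 8600. Allele 2 had 6345, 4993 and 7666 with 150 in front, against 8388, 9009 and 11331, and 30956, 26444 and 28596 with 50 in front, against 14245, 11940 and 16173. With 50 in front every RNA count was above every input count in both alleles. With 150 in front, after scaling for depth, neither allele was called, with activities of -0.14 ± 0.25 for allele 2 and 0.82 ± 0.29 for allele 1. The differences were -1.83 ± 0.23 and -1.64 ± 0.22 (edgeR adjusted p = 0.0384 and 0.0407). Without RNA replicate 2 neither allele was called (edgeR adjusted p = 0.0875 for both), and without replicate 3 allele 1 was not (edgeR adjusted p = 0.0544).

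In the other lines ZNF823 did not pass the test, with differences for allele 1 of -0.21 for SH-SY5Y, 0.47 for HEK-293T and -0.33 for PC-12, and for allele 2 of 0.31, 0.53 and -0.09. Also in Neuro-2a, a SNP of chromosome 6 (position 87144623, allele 2) outside the named genes of the annotation differed by -3.46 ± 0.38 (edgeR adjusted p = 0.0328). In SH-SY5Y, allele 1 of a SNP in THAP8, a gene for a protein with a THAP DNA-binding domain (chromosome 19, position 36040011), differed by -3.34 ± 0.50, and allele 2 of a SNP in ANKRD63, which encodes an ankyrin-repeat protein (chromosome 15, position 40279991), by -1.27 ± 0.19 (edgeR adjusted p = 0.0451 and 0.0426). For THAP8 the difference in RNA replicate 1 was the smallest of the 3, at -2.28, against -3.94 and -3.75, and its call was lost without RNA replicate 2 or 3 (edgeR adjusted p = 0.0639 and 0.0653). For ANKRD63 the 3 values were -1.27, -1.15 and -1.38.

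Few pairs were called in the same direction in both placements, and ANKRD27 was so in the most lines. It encodes a protein of endosomal trafficking (chromosome 19, position 32672137, allele 2). In PC-12 it had 18894 and 17342 RNA counts with 150 in front, against 9930, 7688 and 10572 in the input, and 12261 and 12901 with 50 in front, against 8138, 6711 and 8358. RNA was above input in both placements and did not overlap it. The activity was 1.28 ± 0.13 with 150 in front and 0.80 ± 0.15 with 50 in front in Neuro-2a, 1.28 ± 0.14 and 1.09 ± 0.17 for SH-SY5Y, and 1.13 ± 0.08 and 0.88 ± 0.11 for PC-12, all called above input. In HEK-293T the activities were 0.97 ± 0.12 and 0.53 ± 0.27 (edgeR adjusted p = 0.035 and 0.304). The placement difference was 0.49 in Neuro-2a, 0.19 for SH-SY5Y, 0.50 for HEK-293T and 0.25 for PC-12 (edgeR adjusted p = 0.407 to 0.564).

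FURIN, a protease that cuts proproteins in the secretory pathway, is named after its values were seen, because both alleles of its SNP (chromosome 15, position 90883330) were called above input in both placements in Neuro-2a and PC-12. In PC-12 allele 2 had 7924 and 6990 RNA counts with 150 in front, against 3206, 2739 and 3513 in the input, and 9033 and 8246 with 50 in front, against 3816, 3152 and 4251. Allele 1 had 5212 and 4845 with 150 in front, against 2571, 1907 and 2543, and 30147 and 29386 with 50 in front, against 9950, 8255 and 10934. In PC-12 the activity of allele 2 was 1.41 with 150 in front and 1.38 with 50 in front, and that of allele 1 was 1.28 and 1.79. The central FURIN fragment of allele 1 had 1221 and 0 RNA counts in PC-12 and 387, 641 and 504 in Neuro-2a, against 1312, 1067 and 1455 in the input. Before scaling for depth, none of these RNA counts was above the highest input count, and the PC-12 count of 1221 lay within the input range. This fragment shares 150 bases with each off-centre fragment. Its fitted activity and the central fragment of allele 2 are not given here.

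Where both alleles of a SNP had both placements, their placement differences were compared as different plasmids in the same libraries. Pearson's r between allele 2 and allele 1 was 0.24 in Neuro-2a (n = 92 SNPs), 0.30 for SH-SY5Y (n = 121), 0.40 for HEK-293T (n = 118) and 0.34 for PC-12 (n = 129). The sign was the same in 64.1%, 56.2%, 55.1% and 65.9% of these SNPs. In RNA replicate 1 alone, over SNPs with no count of 0 in it, r was 0.27, 0.55, 0.71 and 0.59. In replicate 2 it was 0.29, 0.28 and 0.22 in the 3 lines that have it, and in replicate 3 it was 0.13, 0.14, 0.42 and 0.36. Among called pairs whose SNP had the other allele in both placements, that allele had the same sign in 2 of 4 pairs in Neuro-2a, 6 of 9 for SH-SY5Y, 2 of 2 for HEK-293T and 13 of 14 for PC-12. A SNP with both alleles called enters these counts once for each allele. This was so for 1 SNP in Neuro-2a (ZNF823) and 1 in PC-12 (PPP2R3A), so both Neuro-2a agreements come from ZNF823 alone.

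The allelic effect of a fragment is the activity of allele 2 minus that of allele 1. Among the off-centre fragments of these SNPs, edgeR's quasi-likelihood test called 1 of 315 in Neuro-2a (0.187% of all 534 fragments of the line) and 1 of 366 in SH-SY5Y (0.166% of 601). It called 0 of 361 in HEK-293T (0% of 606) and 0 of 392 in PC-12 (0% of 635), where 13 and 31 fragments had an unadjusted p under 0.05 and DESeq2 called 6 and 42. Without RNA replicate 1 edgeR called 95 in Neuro-2a, 175 for SH-SY5Y, 73 for HEK-293T and 351 for PC-12, and 216 for PC-12 without replicate 3. Allelic effects in the 2 placements showed little relation: Pearson's r was 0.15, 0.06, -0.10 and 0.07 (n = 92, 121, 118 and 129 SNPs), and their sign was the same in 52.2%, 55.4%, 43.2% and 49.6% of SNPs.

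The Neuro-2a call was a SNP of chromosome 3 (position 31997390) in its fragment with 50 bases in front, where OSBPL10, a gene of the oxysterol-binding protein family, and the zinc-finger gene ZNF860 overlap. Allele 2 had 6806, 13938 and 8099 RNA counts, against 8041, 6545 and 8746 in the input. Allele 1 had 3813, 7726 and 5944 RNA counts, against 107, 73 and 73 in the input. RNA overlapped input for allele 2 and was far above it for allele 1, whose input was low, and the allelic effect was -5.83 ± 0.32 (edgeR adjusted p = 0.00266). With 150 in front, allele 2 had 370, 807 and 1094 RNA counts, against 532, 495 and 564, and allele 1 had 22367, 40370 and 36695, against 8735, 7237 and 9136, for an effect of -1.57 ± 0.29 (edgeR adjusted p = 0.264).

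RNA replicates of the other lines were split for the chromosome 3 SNP. In SH-SY5Y, allele 1 had 34701, 309 and 1233 RNA counts with 150 in front and 0, 4674 and 5606 with 50 in front. In HEK-293T it had 19175, 0 and 626 with 150 in front and 0, 4892 and 5829 with 50 in front. In both lines RNA replicate 1 was high with 150 in front and at 0 with 50 in front, and the other replicates had the opposite order. The placement difference of allele 1 was -4.13 ± 0.24 in Neuro-2a (edgeR adjusted p = 0.00324), -7.98 ± 5.62 for SH-SY5Y, -9.85 ± 7.74 for HEK-293T and -1.25 ± 3.78 for PC-12 (edgeR adjusted p = 0.438, 0.632 and 0.834).

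The SH-SY5Y call was the protocadherin SNP with 150 in front. Allele 2 had 343, 1086 and 1464 RNA counts, against 1661, 1260 and 1568 in the input, and allele 1 had 2290, 3586 and 4187, against 74, 57 and 74. The effect was -6.44 ± 0.51 (edgeR adjusted p = 0.02), and it rests on an allele with input counts of 57 to 74. It was lost without RNA replicate 2 and without any 1 input library. Allele 2 had no counts with 50 in front, so its effect there was not compared. The same effect was -7.93 ± 3.05 in Neuro-2a, -0.06 ± 3.59 for HEK-293T and -10.1 ± 5.76 for PC-12, none of them called.

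A difference in allelic effect between placements was tested in SNPs with all 4 fragments. Neuro-2a had 2 calls of 92 SNPs (1.36% of 294 pairs of the 3 kinds). SH-SY5Y had 0 of 121 (0.267% of 375), HEK-293T 0 of 118 (0% of 378) and PC-12 0 of 129 (0% of 416). In the lines with 0 edgeR calls, 26, 13 and 14 SNPs had an unadjusted p under 0.05, and DESeq2 called 17, 1 and 1. Without RNA replicate 1 edgeR called 19 in Neuro-2a, 55 for SH-SY5Y, 22 for HEK-293T and 117 for PC-12, and 81 for PC-12 without replicate 3. The chromosome 3 SNP above was the first Neuro-2a call, with a difference of 4.26 ± 0.50 (effect with 150 in front minus that with 50 in front, edgeR adjusted p = 0.000162).

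The second was the SNP of chromosome 6 named above (position 87144623). In Neuro-2a with 150 in front, allele 2 had 10628, 11029 and 6933 RNA counts, against 20350, 15967 and 21143 in the input, and allele 1 had 10330, 13748 and 11111, against 20445, 16560 and 22592. With 50 in front, allele 2 had 3388, 1920 and 2763 RNA counts, against 480, 439 and 547, and allele 1 had 2462, 1637 and 2399, against 3942, 3245 and 4310. RNA counts of both alleles were below input in the first placement, and in the second allele 2 was above its input and allele 1 below it. The effect was -0.27 ± 0.26 with 150 in front and 3.27 ± 0.44 with 50 in front, a difference of -3.53 ± 0.51 (edgeR adjusted p = 0.000612).

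That chromosome 6 difference was -4.13 ± 1.01 for SH-SY5Y, -3.30 ± 1.5 for HEK-293T and -3.36 ± 1.76 for PC-12 (edgeR adjusted p = 0.0578, 0.47 and 0.489). In RNA replicate 1 it was 1.74 in HEK-293T and 0.60 in PC-12, against -3.70 and -5.06 in HEK-293T replicates 2 and 3 and -5.94 in PC-12 replicate 3. Both Neuro-2a calls were kept when any 1 RNA or input library was left out, and neither passed with limma on the log2 ratios, where the adjusted p was 0.101 for both.

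Of the pairs with the smallest p in the other lines, MSRA differed by -4.34 ± 1.11 in SH-SY5Y and -4.28 ± 1.21 in HEK-293T (edgeR adjusted p = 0.0662 and 0.417). SPATS2L (chromosome 2, position 200362139) differed by 4.32 ± 1.59 in HEK-293T (edgeR adjusted p = 0.451). Its HEK-293T values were 0.61, 4.25 and 6.46 in RNA replicates 1 to 3, and allele 1 with 50 in front had 80, 52 and 75 input counts. In RNA replicate 1 that fragment had 0 counts in Neuro-2a, SH-SY5Y and PC-12. The differences there were -5.01, -6.69 and -6.51, and they were positive in the other replicates of these lines. In PC-12, OTUD7B, a deubiquitinase gene (chromosome 1, position 150059494), differed by -1.76 ± 0.58, and a SNP near PROX1, a homeobox factor gene (chromosome 1, position 213974546), by 2.41 ± 0.83 (edgeR adjusted p = 0.385 for both).

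In a joint fit of the 4 lines, 0 of 324 pairs had a placement difference that differed between lines (0% of 1013 pairs of the 3 kinds; edgeR quasi-likelihood test), and 9 had an unadjusted p under 0.05. The smallest p belonged to allele 2 of the ZNF823 SNP, with values of -1.64 in Neuro-2a, 0.31 for SH-SY5Y, 0.53 for HEK-293T and -0.09 for PC-12 (unadjusted p = 0.00244, edgeR adjusted p = 0.734). Without RNA replicate 1 of each line, 13 pairs were called. No other tool was run for this comparison.

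Among transcription factor genes, FOXP1, TCF20 and TCF4 held 3 pairs in each line, with 0 called by edgeR, differences from -0.92 to 6.98, and 2 with an unadjusted p under 0.05, both TCF4 (2.998 in HEK-293T and 5.70 in SH-SY5Y). Over all off-centre pairs, 48 of 342 in Neuro-2a, 90 of 388 for SH-SY5Y, 51 of 379 for HEK-293T and 92 of 410 for PC-12 had an unadjusted p under 0.05. DESeq2 counts for this list were not computed.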

How the data were processed

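For each fragment, the deposited tables give the raw count of either allele in every RNA and plasmid input library, as whole numbers with no normalization. Per the labels, the input was amplified from the plasmid pool and plasmids were transfected in triplicate. The aligner, counter and build were not given in the sources used here. The submitters' processing notes name limma 3.40.6. The members and the gene list were chosen with earlier results of these data known. Input counts of an allele were identical in all tables that held it, so the 4 lines share their reference.

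Fits were run in R 4.3.3 with edgeR 4.0.16 (TMM, quasi-likelihood test, two-sided, mean count of at least 10), on each line's whole table. Activity tested RNA against input, and the placement difference, the allelic effect and their difference were interaction terms with the library as a block, over pairs of all 3 kinds (150 with 50 bases in front, and each with the central fragment). P-values were Benjamini-Hochberg adjusted over every feature of a fit, and a call is an adjusted p under 0.05. SE is the size of the log2 value over the square root of F. Per-library values used a pseudocount of 1. The fits within a line were run on simulated counts modelled on SH-SY5Y and PC-12 only, and the joint fit was not. The simulation gave RNA and input libraries the same spread, so it cannot show how the tests behave where RNA varies more. Alternatives were DESeq2 1.42.0, limma 3.58.1 on log2 ratios, other size factors and minimum counts, a threshold of 0.01, pairs without counts of 0, a replicate block, and each library left out in turn.

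Named pairs were those with the 3 largest called differences per line and direction, those called in the most lines, opposite calls, same-direction calls in the most lines, the 2 smallest p-values per line for a difference in allelic effect, the smallest p between lines, and called allelic effects. RNA and input libraries of the same number deviated together with r of -0.0898 to 0.171, and those of different numbers with r of -0.116 to 0.101. Whether the numbers pair RNA with input libraries was not tested. Between lines, RNA libraries of the same number gave r of 0.141 to 0.682 over 15 pairs, and those of different numbers -0.655 to 0.481 over 30, where replicates 2 and 3 were not separated. These r are of deviations from the mean of a line's libraries, which pulls r between different numbers down. The 2 PC-12 libraries therefore mirror each other, with r of 0.655 and -0.655 for HEK-293T replicate 1. The labels do not say what a number shares. The reads carry no molecular identifiers in the sources used here, so counts are not independent molecules. Gene names come from RefSeq tables of GRCh38.p14, and no fragment sequence is shown because no genome was used. Some results that the naming rule or the planned gene lists cover are not reported here.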

Additional observations from a re-analysis of the deposited data

Results flagged for a closer look

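Allele 1 of the ZNF823 SNP (chromosome 19, position 11738921) had placement differences of opposite sign in a pair of lines, with 150 bases in front lower in all Neuro-2a RNA libraries (-1.83) and higher in all HEK-293T RNA libraries (0.47). The HEK-293T values were 1.15, 0.23 and 0.04 in RNA replicates 1 to 3, so the last was near 0. Their fitted difference was 0.47 ± 0.33 and was not called (edgeR adjusted p = 0.599). The difference between lines was tested in the joint fit, where its unadjusted p was 0.0029 and its edgeR adjusted p was 0.734.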

How the results depend on the processing

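Counts of calls depended on the test and on single libraries, and are given in the order Neuro-2a, SH-SY5Y, then HEK-293T and last PC-12. Activity calls numbered 47, 97, 20 and 88, and became 215, 242, 179 and 335 with DESeq2, 0 in each line with the replicate block, 9, 12, 0 and 26 at a threshold of 0.01, and 0 to 304, 1 to 433, 0 to 247 and 0 to 745 with 1 library left out. Placement calls numbered 6, 12, 3 and 23, and became 62, 122, 68 and 153 with DESeq2, 3 and 15 in Neuro-2a and PC-12 with limma on log2 ratios, 0 in each line with the RNA spread alone or with the replicate block, 1, 2, 1 and 2 at 0.01, 13, 22, 8 and 41 without counts of 0, and 0 to 99, 0 to 184, 0 to 90 and 0 to 353 with 1 library left out. Allelic calls numbered 1, 1, 0 and 0, and became 40, 20, 6 and 42 with DESeq2, 0 in Neuro-2a and SH-SY5Y with the replicate block, 2 in Neuro-2a without counts of 0, and 1 to 95, 0 to 175, 0 to 73 and 0 to 351 with 1 library left out. Calls of a difference in allelic effect numbered 2, 0, 0 and 0, and became 4, 17, 1 and 1 with DESeq2, 0 in Neuro-2a and 1 in PC-12 with limma, 10 in SH-SY5Y without counts of 0, and 2 to 19, 0 to 55, 0 to 22 and 0 to 117 with 1 library left out; the block kept both Neuro-2a calls. Between lines, 0 pairs were called, 0 with the replicate block (13 at an unadjusted p under 0.05), and 0 to 13 with 1 replicate number left out (13 without replicate 1). Where these counts were 0, 62 to 181 activity values, 17 to 64 placement differences, 0 to 42 allelic effects and 0 to 26 of their differences had an unadjusted p under 0.05. In PC-12, leaving out an RNA library leaves 1, which is assumed to vary like the input. The HEK-293T placement difference of the protocadherin pair ranged from -1.61 (without RNA replicate 3) to 3.57 (without RNA replicate 2) with 1 library left out. Most values given for called pairs were recomputed under the alternatives, but not those of FURIN, of the pairs in the last observations or of most pairs in lines where they were not called. Of these recomputed values, 312 kept direction and side of the threshold, 184 kept direction and lost the call, 16 gained a call and 1 reversed. The 312 include values that were not called to begin with. They also include 31 with no minimum count and 31 with a minimum mean count of 50, settings that changed few of the fitted features. Each input library left out in turn gave 12 values that kept their side and 30 that lost the call. The cause of these shifts was not tested. Low input limits the values of fragments with under 100 input counts, and counts of 0 in RNA limit HEK-293T most.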

Other observations

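Other called pairs, chosen here after their values were seen, add genes outside the naming rule. A SNP near NMUR2, a receptor for neuromedin U (chromosome 5, position 152943676, allele 1), was more active with 150 bases in front in SH-SY5Y and PC-12, at -0.998 and -1.30 against -4.25 and -4.60 with 50 in front, with differences of 3.30 and 3.27. Its activity was below 0 in both placements and both lines, and lowest with 50 in front. A SNP in LETM2 (chromosome 8, position 38401963, allele 2) had an activity of 2.64 with 150 in front in PC-12 and 2.18 in the central fragment, against 0.00 with 50 in front. A pair of SNPs near SNX19, a sorting nexin gene (chromosome 11, positions 130848918 and 131022000, allele 1), differed by 1.63 and 2.54 in PC-12.

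A second STAG1 SNP (chromosome 3, position 136418580, allele 2) was called in the opposite direction to the Neuro-2a and SH-SY5Y calls of the STAG1 pair described above, which in PC-12 had an uncalled value of the same sign (-0.89 ± 2.47). It had an activity of -0.72 with 150 in front and 1.11 with 50 in front in PC-12, a difference of -1.87. Allele 2 of the PLCL1 SNP differed by 2.89 in PC-12, the same direction as the called allele 1 in HEK-293T and SH-SY5Y. In OTUD7B (chromosome 1, position 150059494, allele 1) the fragment with 150 in front had a mean input of 186 counts, against 10648 with 50 in front, and the difference was 1.46 in PC-12. Across lines this OTUD7B difference was positive in 2 and negative in 2. With 150 in front the allele had 564, 268 and 0 RNA counts in Neuro-2a and 477, 0 and 494 in HEK-293T.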
